A study of Mus musculus with 564 samples.

Results

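IMD0354, an inhibitor of the IκB kinase IKK2, and Tanzisertib, an inhibitor of the Jun N-terminal kinases (JNKs), were 2 of the 58 clinical kinase inhibitors (CKIs) that were profiled by ChIP-seq for acetylated lysine 27 of histone H3 (H3K27ac, found at promoters and enhancers in use) in mouse bone marrow-derived macrophages (BMDMs). The members were chosen by name: all libraries whose column in the deposited table carried IMD0354 or Tanzisertib were taken, which gave 20 of 564 libraries, 11 of IMD0354 and 9 of Tanzisertib. Their comparators were the 18 libraries of cells given the vehicle DMSO and the 526 libraries of the remaining inhibitors. Where 1 member was tested against the other 57 inhibitors, the other member was counted among those. All cells were wild type and came from the marrow of male C57/BL6 mice aged 6 to 8 weeks. After 1 h with inhibitor or DMSO they were left unstimulated (UT) or were given 10 ng/mL of LPS or of IL-4 for 30 min, 1 h, 2 h or 4 h. For UT cells the treatment label gives 4 h after the pre-treatment, whereas the title gives 0 h. UT is taken here as time 0, and how long these cells were in contact with inhibitor is not settled.

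IMD0354 had 1 UT library, 4 IL-4 libraries and 6 LPS libraries, because the LPS times of 1 h and 2 h each had a second library with the suffix b, whose meaning the labels do not give. Tanzisertib had 1 library for UT and 1 for each of the 4 times of each stimulus. DMSO had 2 libraries in each of the 9 conditions. Each CKI was used at a concentration of its own, and the labels give none, so that the values of IMD0354 and Tanzisertib are set side by side below and are not compared with each other, and both share the DMSO libraries. Nothing says that the libraries of a group came from separate cultures, and the p-values then measure only the spread between libraries, which may be technical.

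In resting macrophages NF-κB dimers are held in the cytoplasm by inhibitor proteins such as IκBα. LPS, sensed by TLR4, activates the kinase TAK1, which feeds both arms: through the IKK complex IκBα is phosphorylated and degraded, and NF-κB enters the nucleus to induce cytokine genes and its own inhibitors, while through MAP kinase kinases the JNKs phosphorylate JUN and ATF proteins of the AP-1 family. IL-4 instead signals through JAK kinases and STAT6 and induces genes of alternative activation. The study's compound list gives JNK1, JNK2 and JNK3 as the intended targets of Tanzisertib, and for IMD0354 it names MAP4K5, a kinase placed upstream of JNK, beside the supplier's annotation as an IKK2 inhibitor.

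Nfkbia and Jun are shown as promoters of a feedback gene of NF-κB and of a gene whose product JNK acts on. The 250 bases before the start of Nfkbia, which encodes IκBα, and of Jun, which encodes the JNK substrate JUN, are given below from RefSeq (build GRCm38.p6), read on the minus strand 5′ to 3′, with matches to the NF-κB consensus in capitals for Nfkbia and matches to AP-1 (TGANTCA) or CRE/ATF (TGACGTCA), searched on both strands, in capitals for Jun.
Nfkbia promoter, chr12:55492648-55492897: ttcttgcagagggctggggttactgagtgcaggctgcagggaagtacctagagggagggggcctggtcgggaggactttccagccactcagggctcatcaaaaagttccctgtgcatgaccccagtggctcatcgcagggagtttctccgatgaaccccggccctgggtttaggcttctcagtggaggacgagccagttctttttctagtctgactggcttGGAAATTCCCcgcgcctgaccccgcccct
Jun promoter, chr4:95052223-95052472: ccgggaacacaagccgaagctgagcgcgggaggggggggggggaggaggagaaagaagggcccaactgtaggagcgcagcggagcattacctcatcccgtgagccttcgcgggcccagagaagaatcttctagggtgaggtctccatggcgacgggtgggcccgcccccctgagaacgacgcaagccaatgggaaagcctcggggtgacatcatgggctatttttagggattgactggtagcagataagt
The Nfkbia window held 1 match to the NF-κB consensus, which 3.90% of 32851 promoter windows of this length held. The Jun window held no match to AP-1 or CRE/ATF as written, whereas 6.75% and 1.55% of all promoter windows held one. Near matches were not counted, such as the stretch tgacatca in the Jun window, so that this does not mean the promoter lacks such a site.

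H3K27ac was given as normalized reads at 59190 cis-regulatory elements (CREs) on 21 chromosomes of the mm10 build, with a median width of 1652 bp. The libraries of the inhibitors stood apart from the DMSO libraries. Contrast, taken here as the median of the top 10% of CREs over that of the bottom 10% in a library, ran from 53.0 to 134 in DMSO libraries, from 10.8 to 27.8 in those of IMD0354, from 8.24 to 16.7 in those of Tanzisertib and from 3.34 to 67.2 in those of the other inhibitors. Depth, estimated from the steps between low values, also differed, with a median of 1399301 reads in IMD0354, 1485577 in Tanzisertib and 4243289 in DMSO libraries. Contrast and depth moved with every difference from DMSO, and their part in those differences was not tested. The second libraries of IMD0354 deviated from the first with an SD of log2 differences of 0.83 at 1 h and 0.80 at 2 h of LPS, whereas the DMSO replicates deviated by 0.35 to 0.49 and the 34 such pairs of other inhibitors by 0.45 to 1.14. Promoter CREs of 15 of 15 macrophage marker genes were present, and their summed values had medians of 10509 in DMSO, 7748 in IMD0354 and 8252 in Tanzisertib libraries. The T cell list had a promoter CRE for 1 of 8 genes (Cd3d, 77 to 138 in DMSO, 47 to 124 in IMD0354 and 93 to 193 in Tanzisertib), whereas Cd3e, Cd4 and Cd8a had none, and the neutrophil genes Ly6g and Mpo had none either. The 4 neutrophil genes with a CRE summed to 83 to 280 in DMSO, 145 to 297 in IMD0354 and 255 to 378 in Tanzisertib libraries. Promoter CREs were also present for 3 of 6 B cell, 3 of 7 dendritic cell and 6 of 10 stromal genes. Their median sums in DMSO, IMD0354 and Tanzisertib libraries were 359, 368 and 366 for B cell genes. For dendritic cell genes they were 392, 321 and 315, and for stromal genes 937.5, 800 and 814. In bulk cells, fewer cells with a mark and less mark in each cell cannot be told apart.

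H3K27ac in cells given either inhibitor was higher than with DMSO at many weakly acetylated CREs and lower at few strongly acetylated ones. Over the LPS course with UT, a limma fit with time and compound as factors called 22366 of 59163 CREs higher with IMD0354 (37.8%) and 1329 lower (2.25%), a call being an adjusted p under 0.05 with a log2 difference over 0.5 in size. For Tanzisertib it called 28586 CREs higher (48.3%) and 2302 lower (3.89%). Over the IL-4 course it called 24296 higher (41.1%) and 646 lower (1.09%) with IMD0354, and 32387 higher (54.8%) and 1496 lower (2.53%) with Tanzisertib, of 59147 tested. The median difference over all CREs was 0.45 and 0.49 on the log2 scale for IMD0354 in the LPS and IL-4 courses, and 0.61 and 0.70 for Tanzisertib.

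Whether a CRE lay above or below DMSO went with its strength in DMSO cells. The quintiles were ordered by the DMSO libraries, which also enter the differences, so that part of this pattern can come from the ordering. In the quintile of CREs lowest in DMSO cells the median value over the LPS course was 7 with DMSO, 24 with IMD0354 and 33 with Tanzisertib. In the highest quintile it was 251 with DMSO, 220 with IMD0354 and 217 with Tanzisertib. Of the CREs in the lowest quintile, 80.7% were called above DMSO with IMD0354 and 94.8% with Tanzisertib. The balance of directions rested on the scaling: after quantile normalization, which gives all libraries one distribution, the LPS course had 164 CREs called higher and 117 lower with IMD0354, 767 higher and 642 lower with Tanzisertib, and the IL-4 course 202 and 180 with IMD0354 and 1699 and 1981 with Tanzisertib, with median differences between -0.01 and 0.00. Without both second libraries of IMD0354, 822 CREs were called lower in the LPS course. Without DMSO replicate 2, 13065 CREs were called higher with IMD0354 in the LPS course.

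**Figure D1:**
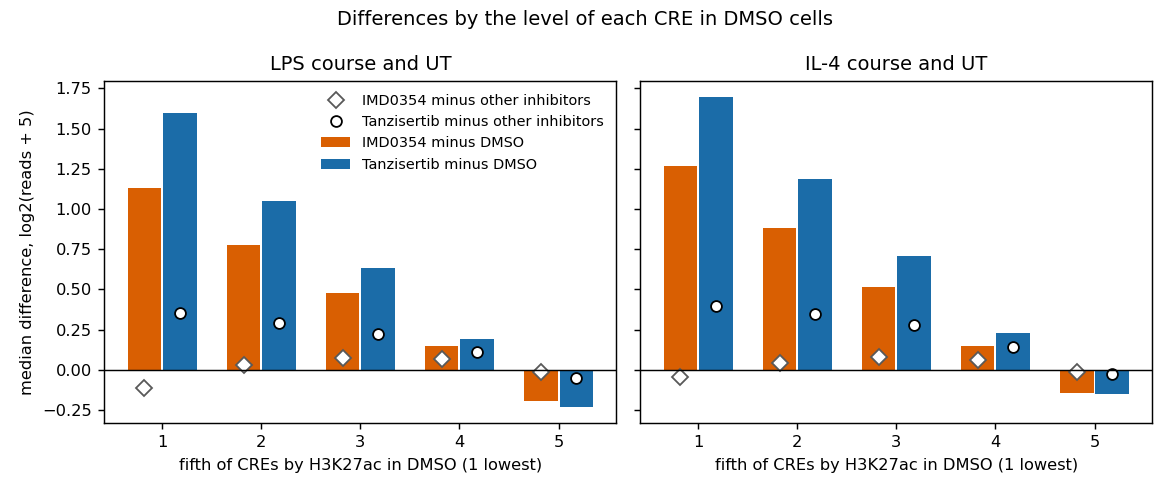
Median difference in log2(reads + 5) of IMD0354 (orange bars) and Tanzisertib (blue bars) from DMSO in each quintile of CREs, ordered by their level in DMSO cells, for the LPS course (left) and the IL-4 course (right), each with UT. The DMSO libraries set the order and also enter the bars. Open markers give the median difference of the same compound from the other inhibitors. In the LPS course the bars run from 1.13 (IMD0354) and 1.60 (Tanzisertib) in the lowest quintile to -0.20 and -0.23 in the highest, and the markers lie between -0.11 and 0.35.

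Of the NF-κB feedback genes, Nfkbia carried less H3K27ac over the LPS course with either inhibitor than with DMSO. Its promoter CRE (chr12:55485143-55493663) had 758 and 816 normalized reads in the UT libraries of DMSO, 864 with IMD0354 and 763 with Tanzisertib. At 30 min of LPS it had 1084 and 962 with DMSO, 725 with IMD0354 and 712 with Tanzisertib, and at 1 h 1754 and 1692, 1272 and 993 (second library), and 1022. At 2 h the values were 2019 and 2100 with DMSO, 1638 and 1303 with IMD0354 and 1297 with Tanzisertib, and at 4 h 2442 and 2250, 1655 and 1453. The unstimulated libraries overlapped, and at each of the 4 LPS times both DMSO libraries lay above every library of IMD0354 and Tanzisertib. Over the course Nfkbia was lower by a log2 difference of -0.53 (SE 0.13, adjusted p 0.000342) with Tanzisertib and of -0.39 (SE 0.12, adjusted p 0.00519) with IMD0354, which was under the size for a call. After quantile normalization these differences were -0.04 and 0.03. The other inhibitors had a median of 1695 at 4 h, and the differences from them were -0.03 (95% CI -0.43 to 0.37) for IMD0354 and -0.17 (-0.57 to 0.22) for Tanzisertib.

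Tnfaip3, which encodes the ubiquitin-editing inhibitor A20, differed from DMSO chiefly before LPS. Its CRE (chr10:18997399-19013563, centred in an intron) had 228 and 203 normalized reads with DMSO in UT cells, 618 with IMD0354 and 598 with Tanzisertib, within the 284 to 780 of the other inhibitors. At 4 h of LPS it had 2707 and 2333 with DMSO, 2163 with IMD0354 and 1659 with Tanzisertib. Over the LPS course the differences from DMSO were 0.09 with IMD0354 and -0.04 with Tanzisertib, and neither was called.

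Under IL-4, Tnfaip3 was higher with both compounds at every time. With DMSO it had 406 and 496 normalized reads at 30 min, 350 and 401 at 1 h, 353 and 397 at 2 h, and 383 and 335 at 4 h. With IMD0354 it had 707, 504, 636 and 480 at these times, and with Tanzisertib 783, 597, 687 and 597. No library of DMSO reached one of the inhibitors at the same time. The rise over the IL-4 course was 0.75 (SE 0.17, adjusted p 0.000244) with IMD0354 and 0.90 (SE 0.17, adjusted p 1.96e-06) with Tanzisertib in limma, and after quantile normalization it was 0.88 and 1.12 and still called. The difference from the other inhibitors was 0.17 (95% CI -0.39 to 0.73) and 0.33 (-0.23 to 0.88).

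The promoter of Il6 lay above DMSO before LPS and below it at the late times. The CRE of Il6, the acute-phase cytokine (chr5:30012104-30015562), had 30 and 31 normalized reads in UT cells with DMSO, 50 with IMD0354 and 90 with Tanzisertib. At 2 h of LPS it had 628 and 666 with DMSO, 415 and 379 with IMD0354 and 398 with Tanzisertib, and at 4 h 686 and 611, 417 and 366. Il6 was thus above DMSO in UT cells and below it at the late times, and the course average differed from DMSO by -0.12 with IMD0354 and 0.04 with Tanzisertib. Under IL-4, which does not induce it, Il6 was called higher by 0.78 (SE 0.23, adjusted p 0.00407) with IMD0354 and by 1.16 (SE 0.23, adjusted p 7.63e-06) with Tanzisertib, calls that were not kept after quantile normalization (0.29 and 0.62).

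Il1b, which encodes the inflammasome-processed cytokine IL-1β, had 135 and 102 normalized reads in UT cells with DMSO, 265 with IMD0354 and 251 with Tanzisertib, and 643 and 576, 625 and 658 at 4 h of LPS. At 2 h of IL-4 it had 66 and 75 with DMSO, 259 with IMD0354 and 265 with Tanzisertib, and at 4 h 52 and 75, 163 and 228. Il1b thus lay above both DMSO libraries at the late IL-4 times in cells given either compound. Over the IL-4 course it rose by 0.94 (SE 0.23, adjusted p 0.000533) with IMD0354 and by 1.44 (SE 0.23, adjusted p 4.73e-08) with Tanzisertib, and after quantile normalization by 0.81, no longer called, and by 1.36, still called.

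Tnf, which encodes the cytokine TNF, had 602 and 601 normalized reads in UT cells with DMSO, 662 with IMD0354 and 842 with Tanzisertib, and 1322 and 1519, 1245 and 834 (second library of IMD0354), and 1122 at 2 h of LPS. Its LPS course differences of -0.25 with IMD0354 and -0.14 with Tanzisertib were not called, and they turned after quantile normalization (0.17 and 0.40). Its IL-4 course differences were 0.06 and 0.31, under the size for a call, and 0.23 and 0.57 after quantile normalization, where the difference with Tanzisertib was called. Il12b, which encodes a subunit shared by IL-12 and IL-23, was weak in UT cells, with 12 and 12 with DMSO, 19 with IMD0354 and 47 with Tanzisertib, and at 1 h of LPS had 232 and 212, 254 and 153 (second library), and 182. Under IL-4 Il12b had 3 to 16 with DMSO, 20 to 68 with IMD0354 and 35 to 53 with Tanzisertib, without overlap. It was called higher over the IL-4 course by 1.38 (SE 0.33, adjusted p 0.000573) and 1.78 (SE 0.33, adjusted p 2.48e-06), calls that were not kept after quantile normalization (0.28 and 0.37). Over the LPS course it was called with Tanzisertib (0.59, SE 0.26, adjusted p 0.0464), a call lost without either DMSO replicate (0.58 and 0.59) or without its UT (0.55), 30 min (0.61) or 4 h (0.48) library, and the difference with IMD0354 was 0.36.

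Of the interferon genes, Rsad2 fell with Tanzisertib over the LPS course, in which Ifnb1 was not called. Ifnb1, which encodes interferon-β, had 31 and 30 normalized reads in UT cells with DMSO, 50 with IMD0354 and 32 with Tanzisertib. At 1 h of LPS it had 472 and 423 with DMSO, 452 and 299 with IMD0354 and 384 with Tanzisertib, and the course difference was -0.01 and -0.20. Under IL-4 Ifnb1 had 9 to 20 with DMSO, 18 to 44 with IMD0354 and 25 to 75 with Tanzisertib. It was called higher over the IL-4 course by 0.86 (SE 0.32, adjusted p 0.0192) with IMD0354 and by 1.06 (SE 0.32, adjusted p 0.00219) with Tanzisertib, and after quantile normalization both differences turned (-0.033 and -0.14) and were not called. The call with IMD0354 was also lost without DMSO replicate 2 (0.75) and without its UT (0.78) or 30 min (0.77) library. Rsad2, which encodes the antiviral enzyme viperin and is induced by interferon, had 329 and 311 at 4 h of LPS with DMSO, 219 with IMD0354 and 114 with Tanzisertib. That value of Tanzisertib ranked 54 of 55 inhibitors from the highest, against a range of 70 to 321 in the other inhibitors. Over the LPS course Rsad2 fell by 0.71 (SE 0.20, adjusted p 0.00188) with Tanzisertib, and its difference was -0.48 (SE 0.18, adjusted p 0.0258) with IMD0354. After quantile normalization the Rsad2 differences were -0.73 and -0.46, with no call.

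Of the AP-1 genes named here, Junb fell with Tanzisertib over the LPS course, and the call held under each alternative tried except a size threshold of 1. The Junb CRE (chr8:84973602-84983710) had 1876 and 1971 normalized reads with DMSO in UT cells, 1842 with IMD0354 and 1841 with Tanzisertib. At 30 min of LPS it had 2938 and 2946 with DMSO, 2310 with IMD0354 and 1848 with Tanzisertib, and at 1 h 3076 and 3402, 1918 and 1856 (second library), and 2276. At 2 h the values were 3586 and 3728 with DMSO, 2813 and 2215 with IMD0354 and 1897 with Tanzisertib, and at 4 h 3171 and 3162, 2280 and 1842. With DMSO the promoter of Junb, which encodes an AP-1 subunit, gained H3K27ac at every time. With Tanzisertib it stayed near its UT value at 30 min, 2 h and 4 h and was higher only at 1 h. The difference from DMSO was -0.59 (SE 0.14, adjusted p 0.000187) with Tanzisertib and -0.46 (SE 0.13, adjusted p 0.00217) with IMD0354, which was under the size for a call, and after quantile normalization -0.59 and -0.37. The other inhibitors ran from 1275 to 3736 with a median of 2583 at 4 h, and against them the difference of Tanzisertib was -0.27 (95% CI -0.74 to 0.20).

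Jun, whose product is the JNK substrate, had less H3K27ac at 1 h of LPS than in UT cells in the libraries of DMSO and of both compounds. Its CRE (chr4:95047395-95055663) had 1176 and 1280 normalized reads in UT cells with DMSO, 1123 with IMD0354 and 1142 with Tanzisertib, and at 1 h of LPS 589 and 604, 503 and 541 (second library of IMD0354), and 625. At 4 h it had 757 and 794 with DMSO, 650 with IMD0354, 635 with Tanzisertib and 465 to 1182 with the other inhibitors, whose median was 907. The course difference from DMSO was -0.27 with IMD0354 and -0.20 with Tanzisertib, neither called, and from the other inhibitors -0.28 (95% CI -0.67 to 0.12) and -0.20 (-0.59 to 0.20).

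Atf3, a stress-induced repressor of the ATF family and a JNK-responsive gene, had 323 and 346 normalized reads in UT cells with DMSO, 341 with IMD0354 and 344 with Tanzisertib. At 4 h of LPS its CRE (chr1:191181727-191184408) had 581 and 594 with DMSO, 406 with IMD0354 and 315 with Tanzisertib. The value of Tanzisertib lay below all other inhibitors, which ran from 326 to 760. The course difference was -0.50 (SE 0.14, adjusted p 0.00282) with IMD0354 and -0.46 (SE 0.15, adjusted p 0.00753) with Tanzisertib, both under the size for a call, and -0.20 and -0.06 after quantile normalization. Fosl2, another AP-1 subunit, differed by -0.43 (SE 0.12, adjusted p 0.00372) and -0.45 (SE 0.14, adjusted p 0.0034), and by -0.01 and 0.08 after quantile normalization, where the sign turned for Tanzisertib. For Fos, the immediate early AP-1 partner of JUN, the difference with IMD0354 was -0.32 over the LPS course and -0.47 over the IL-4 course (SE 0.13, adjusted p 0.00167), under the size for a call, and with Tanzisertib -0.07 and 0.08.

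**Figure D2:**
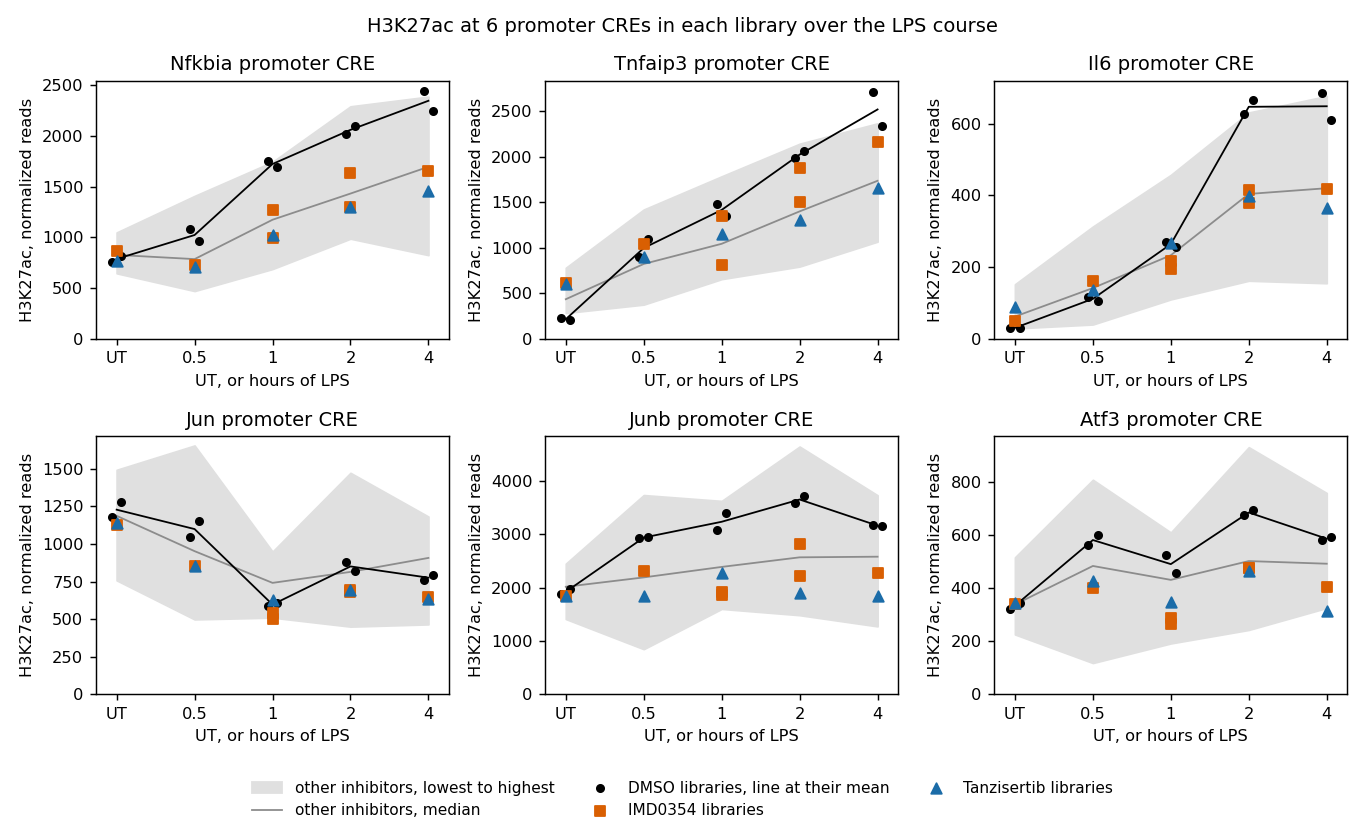
Normalized H3K27ac reads (vertical axis, linear from 0) at the promoter CREs of Nfkbia, Tnfaip3, Il6, Jun, Junb and Atf3 in UT cells and along the 4 LPS times. Each point is 1 library of DMSO (black, line at the mean), IMD0354 (orange squares) or Tanzisertib (blue triangles), and the grey band and line give the range and median of the other inhibitors. At 4 h both DMSO libraries lie above the points of IMD0354 and Tanzisertib in each of the 6 panels, while in UT cells those of Tnfaip3 and Il6 lie below them.

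The promoters of the target kinases had no called difference from DMSO over a course. Ikbkb, which encodes IKK2, had 427 and 499 normalized reads at 30 min of LPS with DMSO, 358 with Tanzisertib and 534 with IMD0354, the highest of 58 inhibitors. At 2 h it had 595 and 588 with DMSO, 441 and 315 with IMD0354 and 295 with Tanzisertib, and the course differences of -0.16 and -0.32 were not called. Mapk8, which encodes JNK1, had 51 and 52 at 30 min of IL-4 with DMSO, 15 with IMD0354 and 75 with Tanzisertib. That library of IMD0354 lay below both DMSO libraries (SE of the log2 difference 0.43, adjusted p 0.0364 in limma). Over the IL-4 course Mapk8 differed from the other inhibitors by -0.56 (95% CI -1.05 to -0.08, unadjusted p 0.0232) with IMD0354, with an adjusted p of 1.00 in limma. Map4k5 had 89 and 125 at 30 min of IL-4 with DMSO, 59 with IMD0354 and 99 with Tanzisertib, and at 4 h 110 and 122, 69 and 119. Its difference from the other inhibitors was -0.47 (95% CI -0.78 to -0.15) with IMD0354, again with an adjusted p of 1.00 in limma. Mapk9, which encodes JNK2, had 134 and 159 in UT cells with DMSO, 107 with IMD0354 and 244 with Tanzisertib, and the other inhibitors ran from 106 to 244.

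Of the IL-4 target genes, Arg1 was lower with Tanzisertib. Its CRE (chr10:24926716-24929154), at the gene of the arginine-degrading enzyme of alternatively activated macrophages, had 123 and 141 normalized reads in UT cells with DMSO, 76 with IMD0354 and 197 with Tanzisertib, the latter above the 43 to 175 of the other inhibitors. After 30 min of IL-4 it had 692 and 604 with DMSO, 486 with IMD0354 and 435 with Tanzisertib, and after 1 h 654 and 656, 604 and 335. After 2 h it had 671 and 747, 504 and 415, and after 4 h 617 and 564, 496 and 277. DMSO was above both compounds at each time of IL-4. Arg1 fell by 0.56 (SE 0.16, adjusted p 0.00102) with Tanzisertib over the IL-4 course and had a difference of -0.40 (SE 0.16, adjusted p 0.026) with IMD0354. The call of Tanzisertib was not kept after quantile normalization (-0.38) or without its 1 h (-0.47) or 4 h (-0.47) library, and its difference from the other inhibitors was 0.00 (95% CI -0.39 to 0.40). Socs1, the feedback inhibitor of JAK kinases, had differences of -0.19 and -0.40 over the IL-4 course. Ccl22, a chemokine for T helper cells, was near 0 with DMSO under IL-4 (3 to 16 normalized reads) and had 5 to 27 with IMD0354 and 32 to 58 with Tanzisertib. Its call above DMSO with Tanzisertib in the IL-4 course (1.99, SE 0.33, adjusted p 2.32e-07) was not kept after quantile normalization (0.60), and those of the other 3 comparisons (0.62 and 0.61 over the LPS course, 0.80 with IMD0354 under IL-4) were lost or turned there.

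At single times, with 1 library of an inhibitor against 2 of DMSO (2 at 1 h and 2 h of LPS for IMD0354), fewer CREs were called. In UT cells IMD0354 had 3057 CREs called higher (5.17%) and 156 lower (0.264%) in the fit with LPS, and 3767 (6.37%) and 737 (1.25%) in the fit with IL-4. Tanzisertib had 3140 (5.31%) and 27 (0.0456%), and 3949 (6.68%) and 336 (0.568%). The lone library is taken in these fits to vary like the other groups, and, as over the courses, the balance of directions is that of the authors' scaling. After 30 min of LPS IMD0354 had 12 higher (0.0203%) and 1 lower (0.00169%), after 1 h 995 (1.68%) and 326 (0.551%), after 2 h 1311 (2.22%) and 270 (0.456%), and after 4 h 1 (0.00169%) and 2 (0.00338%). Tanzisertib had 859 (1.45%) and 60 (0.101%) after 30 min, 21 (0.0355%) and 0 (0%) after 1 h, 3213 (5.43%) and 581 (0.982%) after 2 h, and 4156 (7.02%) and 848 (1.43%) after 4 h. Both counts of IMD0354 were low at the 30 min and 4 h times with 1 library, and those of Tanzisertib at 1 h. Under IL-4 IMD0354 had 2617 higher (4.42%) and 622 lower (1.05%) after 30 min, 19 (0.0321%) and 8 (0.0135%) after 1 h, 862 (1.46%) and 273 (0.462%) after 2 h, and 3 (0.00507%) and 2 (0.00338%) after 4 h. Tanzisertib had 11510 (19.5%) and 1170 (1.98%), 6872 (11.6%) and 921 (1.56%), 4434 (7.5%) and 518 (0.876%), and 3047 (5.15%) and 528 (0.893%) at these times.

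Described by lists, the promoter CREs of signalling and interferon genes were called below DMSO more often than above it in the LPS course. Of 21 genes of IKK and TAK1 signalling 0 were called higher and 8 lower with IMD0354 (median difference -0.39), and 0 and 8 with Tanzisertib (-0.44). Of 14 NF-κB subunits and inhibitors 0 were called higher and 6 lower with IMD0354 (-0.46), and 0 and 7 with Tanzisertib (-0.48). Of 27 interferon genes 0 and 11 were called with IMD0354 (-0.48), and 0 and 13 with Tanzisertib (-0.50). These shares stand against 2.25% and 3.89% of all CREs called lower, and against overall medians of 0.45 and 0.61, but promoters are strong CREs and the strong CREs were the ones below DMSO. In the quintile of CREs highest in DMSO cells, 9.69% were called lower with IMD0354 (median -0.20) and 17.3% with Tanzisertib (-0.23). After quantile normalization the IKK list had 0 and 2 promoters called lower with IMD0354 and Tanzisertib, and the interferon list 1 and 1. The counts of all CREs called lower fell as well, as given above. The JNK signalling list (19 genes) had 0 higher and 2 lower with IMD0354, and 0 and 3 with Tanzisertib. The AP-1 and ATF list (17 genes) had 1 higher and 0 lower, and 1 and 1, and the immediate early list (21 genes) 1 and 1, and 1 and 2.

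The 34 inflammatory NF-κB target genes went both ways in the LPS course, with 5 higher (14.7%, beside 37.8% of all CREs) and 3 lower (8.82%, beside 2.25%) with IMD0354, and 8 higher (23.5%, beside 48.3%) and 6 lower (17.6%, beside 3.89%) with Tanzisertib. In the quintile of CREs highest in DMSO cells, 9.69% and 17.3% were called lower in that course. Under IL-4, 12 of the 34 were higher and 1 lower with IMD0354, and 15 higher and 2 lower with Tanzisertib, beside 41.1% and 54.8% of all CREs called higher. After quantile normalization 1 and 8 of the 34 were still called higher, and the counts of all CREs called higher also fell, as given above. Of the 23 IL-4 and STAT6 target genes 2 were higher (8.70%) and 0 lower with IMD0354 under IL-4. With Tanzisertib 5 were higher (21.7%) and 2 lower (8.70%). Of all CREs, 41.1% were called higher and 1.09% lower with IMD0354, and 54.8% and 2.53% with Tanzisertib.

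Of the largest differences from DMSO by the naming rule, none was a promoter CRE of the listed genes. The CRE nearest to H60c (chr10:3110992-3117821, intergenic, 153344 bp from its start) had 5 to 74 normalized reads in the 10 DMSO libraries of the LPS course with UT (median 37), 406 to 2189 with IMD0354 (median 1088) and 1662 to 2872 with Tanzisertib (median 2570). The groups did not overlap, and the other inhibitors ran from 349 to 8343. The rise was 4.93 (SE 0.38) with IMD0354 and 6.10 (SE 0.42) with Tanzisertib. The other top rises of IMD0354 were CREs of the predicted genes Gm10719, Gm11168 and Gm10717, which lie together at the start of chromosome 9 and are near-identical copies, so that the reads given to each are uncertain. At Gm10719 (chr9:3018228-3021401) DMSO libraries had 236 to 2351 reads and those of IMD0354 5663 to 23204. For Tanzisertib they included intergenic or intronic CREs nearest to Tcp10c, Pdia4, Chst2 and Smo, where the Smo CRE (chr6:29747124-29749715) had 5 to 33 with DMSO and 591 to 1230 with Tanzisertib.

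Of the largest falls, the start of Tcte3, a dynein light chain gene expressed in testis, was given 132 to 208 normalized reads in DMSO libraries of the LPS course. It was at 0 to 175 with IMD0354 and at 0 to 131 with Tanzisertib, with a median of 0 in both. The size of its fitted fall thus depends on the pseudocount, and the other inhibitors ran from 0 to 303. Ifnz, an interferon-ζ gene in the type I interferon cluster, where related copies make the counts uncertain (chr4:88781694-88783484), had 58 to 463 with DMSO, 0 to 363 with Tanzisertib and 0 to 568 with the other inhibitors. Under IL-4 the CRE nearest to Sirpb1a, a signal-regulatory protein gene (chr3:15469513-15471117, 43795 bp away), had 92 to 172 with DMSO, 15 to 50 with IMD0354 and 18 to 99 with Tanzisertib. The other inhibitors ran from 0 to 185 at this CRE. It fell from DMSO by 1.71 (SE 0.43, adjusted p 0.000845 in limma) with IMD0354 and by 1.39 with Tanzisertib. The CRE nearest to Fcrls, an Fc receptor-like scavenger receptor gene, had 271 to 449 with DMSO, 57 to 200 with Tanzisertib and 57 to 333 with the other inhibitors, and the groups of DMSO and Tanzisertib did not overlap. None of these largest rises and falls from DMSO was called against the other inhibitors.

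Against the other 57 inhibitors, with 1 value per compound and CRE, 1 CRE was called for IMD0354 and none for Tanzisertib. In limma 0 CREs were called higher or lower for IMD0354 in the LPS course and 0 for Tanzisertib in either course (0% of 59163 and of 59150 tested), and for IMD0354 in the IL-4 course 0 were called higher and 1 lower (0.00169%). At an unadjusted limma p under 0.05, IMD0354 had 635 CREs above and 627 below the other inhibitors in the LPS course. In the IL-4 course it had 550 and 1143. Tanzisertib had 1180 and 130, and 1591 and 322. Both directions together were 2.13% and 2.86% of CREs tested for IMD0354, and 2.21% and 3.23% for Tanzisertib. Each share was below the 0.05 that this threshold gives where nothing differs. The design had a median 95% half-width of 0.60 on the log2 scale in the LPS course for both compounds and of 0.63 in the IL-4 course. The interval lay within 1 log2 unit of 0 at 72.3% of CREs for IMD0354 and 66.7% for Tanzisertib in the LPS course, so that at these CREs the interval held no difference above that size. For Tanzisertib the median difference over all CREs was 0.17 in the LPS and 0.22 in the IL-4 course, and 0.00 and 0.04 with its run of neighbouring table columns, which held 9 other compounds, as a factor. Every gene list had 0 calls in this comparison. The 17 AP-1 and ATF factor promoters had median differences of -0.24 in the LPS and -0.20 in the IL-4 course with IMD0354, beside 0.01 and 0.02 over all CREs, and of -0.07 and -0.05 with its run as a factor.

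The single CRE called lay 94 bp from the start of Fam210b, a mitochondrial membrane protein gene (chr2:172344554-172346389). It had 6 to 64 normalized reads (median 50) in the 5 IMD0354 libraries of the IL-4 course with UT, 42 to 72 with DMSO and 30 to 219 with the other inhibitors (median 80). The difference from the other inhibitors was -1.08 (SE 0.18, adjusted p 0.0109, 95% CI -1.45 to -0.71). Without the UT library of IMD0354 it was -0.64 and was not called, so that the call rested on that library. With contrast as a covariate the IL-4 course had 104 CREs below the other inhibitors with IMD0354 (0.176%) and the LPS course 5 (0.00845%), whereas Tanzisertib had 1 in the IL-4 course (0.00169%).

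The response to each stimulus, which is the mean of the 4 stimulated times less UT, was also compared with that of DMSO. With IMD0354 the LPS response was called larger than with DMSO at 24 CREs (0.0406%) and smaller at 91 (0.154%). With Tanzisertib it was larger at 4 (0.00676%) and smaller at 183 (0.309%). The IL-4 response was larger at 37 CREs (0.0626%) and smaller at 30 (0.0507%) with IMD0354, and larger at 2 (0.00338%) and smaller at 25 (0.0423%) with Tanzisertib. Each inhibitor had a single UT library, so that all these calls rest on it, and without either DMSO replicate the smaller LPS responses numbered 4 and 0 with IMD0354 and 5 and 4 with Tanzisertib. After quantile normalization they numbered 2 and 4.

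The smaller responses lay mostly in the difference of the unstimulated libraries. These CREs were called on the response, which contains the single UT library, so that the selection itself favoured high UT values. The split into parts below is therefore a description and no separate support. Over all 14680 CREs induced by LPS in DMSO cells, UT lay above DMSO by a median of 0.88 with IMD0354 and 1.04 with Tanzisertib. With the other inhibitors it lay above DMSO by 0.32 to 1.57. All 91 CREs with a smaller LPS response with IMD0354 were induced by LPS in DMSO cells, and at all 91 the difference in UT exceeded the one in stimulated cells. Their median difference from DMSO was 2.46 in UT and -0.04 under LPS, and their median UT value was 9.5 with DMSO and 76 with IMD0354. For the 183 CREs of Tanzisertib it was 1.89 in UT and -0.33 under LPS, the UT part being larger at 177, with UT values of 26.5 and 107. The 30 smaller IL-4 responses with IMD0354 and the 25 with Tanzisertib had differences of 1.96 and 1.63 in UT and of -0.10 and -0.18 under IL-4. The 24 larger LPS responses with IMD0354 had median UT values of 30.25 with DMSO and 0 with IMD0354.

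**Figure D3:**
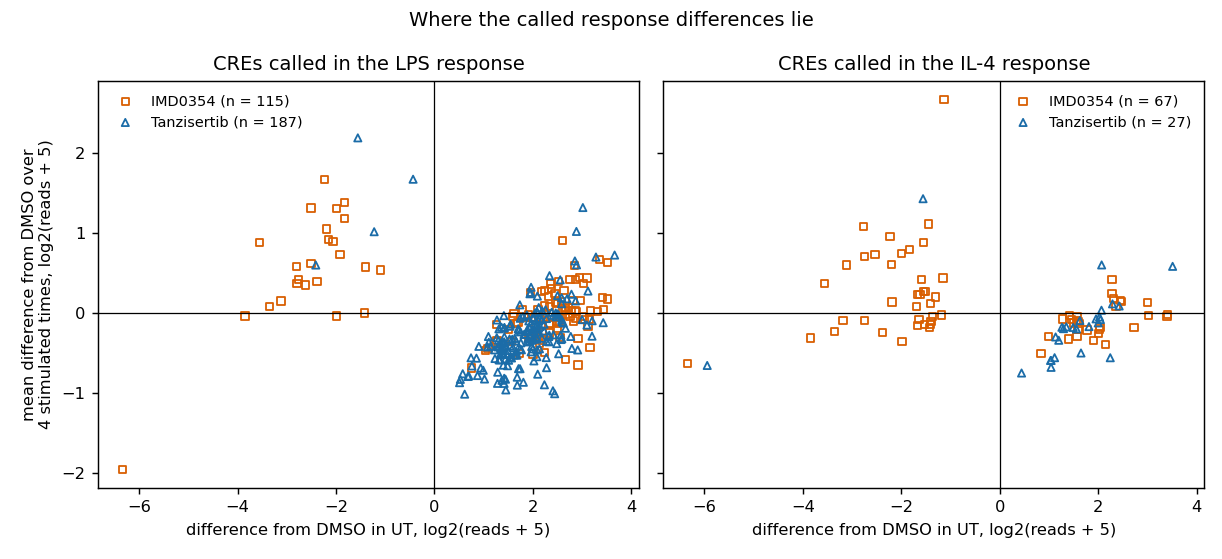
Each point is a CRE called in the response comparison, with its log2 difference from DMSO in UT (horizontal axis) and its mean difference over the 4 stimulated times (vertical axis) for IMD0354 (orange squares) and Tanzisertib (blue triangles), LPS on the left and IL-4 on the right. Most points spread along the horizontal axis, with medians of 2.46 in UT and -0.04 under LPS for the smaller responses of IMD0354. The points were selected on the response, which contains the UT value.

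Windows of 300 bases at the centre of 6 such CREs are shown as the DNA at which the unstimulated mark differed, on the plus strand of GRCm38. They were picked by hand from the 5 largest smaller responses of each comparison, and each holds the motif marked, so that they are not typical. Others of these largest held none of the motifs searched, among them those nearest to Il10 with IMD0354 and to Lad1 and Slx4ip with Tanzisertib under LPS. Capitals mark matches on either strand to the NF-κB consensus at Fscn1 and Jak2, to STAT6 (TTC and GAA, 4 bases apart) at Clec16a and Itgae, and to AP-1 (TGANTCA) or to ISRE (a pair of GAAA repeats 2 bases apart) at Tnc.
CRE nearest to Fscn1, chr5:142949593-142949892: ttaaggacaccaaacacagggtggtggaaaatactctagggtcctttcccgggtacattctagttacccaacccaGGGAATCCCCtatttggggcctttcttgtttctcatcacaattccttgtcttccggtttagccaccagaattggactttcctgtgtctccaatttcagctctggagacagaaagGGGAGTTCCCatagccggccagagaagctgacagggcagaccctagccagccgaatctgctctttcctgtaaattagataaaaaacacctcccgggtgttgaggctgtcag
CRE nearest to Jak2, chr19:29176503-29176802: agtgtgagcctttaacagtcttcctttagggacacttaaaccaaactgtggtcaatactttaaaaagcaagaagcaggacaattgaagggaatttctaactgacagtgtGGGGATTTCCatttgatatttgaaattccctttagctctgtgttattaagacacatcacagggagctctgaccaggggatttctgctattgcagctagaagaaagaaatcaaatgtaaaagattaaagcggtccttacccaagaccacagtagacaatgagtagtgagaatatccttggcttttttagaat
CRE in Clec16a, chr16:10668530-10668829: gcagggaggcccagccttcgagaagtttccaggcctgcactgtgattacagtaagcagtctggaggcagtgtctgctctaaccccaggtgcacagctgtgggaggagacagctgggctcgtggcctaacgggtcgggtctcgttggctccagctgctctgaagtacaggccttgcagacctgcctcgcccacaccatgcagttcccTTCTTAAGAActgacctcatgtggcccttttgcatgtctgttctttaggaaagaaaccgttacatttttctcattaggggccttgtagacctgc
CRE in Clec16a, chr16:10683373-10683672: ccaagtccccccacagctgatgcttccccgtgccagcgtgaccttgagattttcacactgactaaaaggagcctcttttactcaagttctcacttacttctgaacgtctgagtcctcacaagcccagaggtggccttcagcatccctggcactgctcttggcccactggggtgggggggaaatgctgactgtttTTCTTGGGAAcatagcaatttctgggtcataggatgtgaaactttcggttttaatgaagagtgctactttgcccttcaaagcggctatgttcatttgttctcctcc
CRE in Itgae, chr11:73095975-73096274: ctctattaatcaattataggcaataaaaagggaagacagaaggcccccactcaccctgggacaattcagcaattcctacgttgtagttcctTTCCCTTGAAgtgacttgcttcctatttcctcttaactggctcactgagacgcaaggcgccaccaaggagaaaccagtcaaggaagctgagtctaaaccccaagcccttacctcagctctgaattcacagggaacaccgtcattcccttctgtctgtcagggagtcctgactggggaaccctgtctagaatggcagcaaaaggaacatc
CRE nearest to Tnc, chr4:64124428-64124727: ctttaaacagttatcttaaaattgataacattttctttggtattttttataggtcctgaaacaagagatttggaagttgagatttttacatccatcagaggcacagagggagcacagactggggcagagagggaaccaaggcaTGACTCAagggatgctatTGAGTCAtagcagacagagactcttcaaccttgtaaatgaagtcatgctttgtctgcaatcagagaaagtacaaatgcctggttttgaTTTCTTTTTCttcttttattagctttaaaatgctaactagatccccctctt
Over all CREs, 5.98% of such windows held the NF-κB consensus, 9.21% STAT6, 20.2% AP-1 and 5.13% ISRE.

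The CRE nearest to Fscn1, the gene of the actin-bundling protein fascin, was intergenic and 10601 bp from its start. This CRE had 3 and 1 normalized reads in UT cells with DMSO and 57 with IMD0354, the other inhibitors running from 4 to 74. Under LPS it had 74 and 93 at 30 min with DMSO and 91 with IMD0354, and 246 and 173 at 4 h with DMSO and 117 with IMD0354. Its response differed by -3.60 (SE 0.60, adjusted p 0.0022). The CRE nearest to Jak2, the gene of a cytokine receptor kinase, was intergenic and 75176 bp from its start. In UT cells this CRE had 1 and 2 with DMSO and 44 with IMD0354. At 4 h of LPS it had 584 and 435 with DMSO and 387 with IMD0354 (response difference -3.57, SE 0.72, adjusted p 0.0143). With Tanzisertib the CRE nearest to Tnc, the gene of the matrix protein tenascin C, had 61 in UT cells against 6 and 2 with DMSO, and 97 at 4 h of LPS against 152 and 119. Il10, the gene of the anti-inflammatory cytokine IL-10, had an intergenic CRE 17085 bp from its start (chr1:131001913-131003607) with 3 and 0 in UT cells with DMSO and 50 with IMD0354, and 62 and 61 with DMSO and 44 with IMD0354 at 4 h of LPS. At these 4 CREs the UT value lay above both DMSO libraries and the value at 4 h of LPS below both. The UT values lay within those of the other inhibitors, which ran from 1 to 102 at Jak2, 5 to 90 at Tnc and 0 to 62 at Il10.

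Few responses were larger than with DMSO, and the promoter of Itgb3, which encodes the integrin β3, was among the 4 of Tanzisertib under LPS (chr11:104605793-104610401). It had 150 and 135 normalized reads in UT cells with DMSO and 104 with Tanzisertib. With DMSO it had 41 and 49 at 30 min, 45 and 39 at 1 h, 24 and 27 at 2 h, and 24 and 30 at 4 h of LPS, and with Tanzisertib 127, 114, 124 and 109. Itgb3 was thus lower after LPS with DMSO and near its UT value with Tanzisertib, with no overlap at any LPS time, while the other inhibitors ran from 24 to 141 at 4 h with a median of 65. Their medians at 30 min, 1 h and 2 h were 114.5, 99 and 76, also above both DMSO libraries. No larger LPS response with Tanzisertib, Itgb3 included, was called without DMSO replicate 1 or without DMSO replicate 2. The response differed by 2.10 (SE 0.43, adjusted p 0.0172).

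Under IL-4 the pair of intronic Clec16a CREs had 2 and 5, and 2 and 1, normalized reads in UT cells with DMSO and 63 and 38 with IMD0354. After 4 h of IL-4 they had 292 and 284, and 295 and 279, with DMSO and 271 and 241 with IMD0354. The Itgae CRE, at the gene of the integrin αE, had 8 and 14 in UT cells with DMSO and 72 with Tanzisertib, and 145 and 162 with DMSO and 197 with Tanzisertib at 30 min of IL-4. In UT cells the other inhibitors ran from 0 to 141 and from 5 to 102 at the Clec16a CREs, and from 8 to 148 at Itgae. Of the 30 CREs with a smaller IL-4 response with IMD0354, 12 held STAT6 (40%), beside 9.21% of all CREs and 28.6% of those induced by IL-4 in DMSO cells, and of the 25 with Tanzisertib 7 did (28%). Of the 91 with a smaller LPS response with IMD0354, 20 held the NF-κB consensus (22.0%), beside 5.98% of all and 11.8% of those induced by LPS in DMSO cells, and of the 183 with Tanzisertib 36 did (19.7%).

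Of the listed promoters, 3 had a smaller LPS response with IMD0354, namely Tnfaip3 (-1.71, SE 0.37, adjusted p 0.0268), Cd40, a costimulatory receptor (-1.62, SE 0.35, adjusted p 0.0276), and Cxcl2, a neutrophil-attracting chemokine (-1.53, SE 0.34, adjusted p 0.0305). With Tanzisertib there were 8, which were these 3 and Il6, Il1a, Ccl5, Cxcl10 and Dusp2. Cd40 shows the pattern, with 98 and 80 normalized reads in UT cells with DMSO, 221 with IMD0354 and 244 with Tanzisertib, and 917 and 818, 632 and 606 at 4 h of LPS. Ccl5, a chemokine for T cells and monocytes, had 98 and 80 in UT cells with DMSO and 272 with Tanzisertib, and 3373 and 3576 against 1814 at 2 h of LPS. Cxcl10, an interferon-induced chemokine, had 60 and 56 with DMSO in UT cells and 161 with Tanzisertib, and 1135 and 1304 against 522 at 2 h. Ccl5 and Cxcl10 thus differed both in UT and at the late times, and the DMSO and Tanzisertib libraries did not overlap at 2 h or in UT. In UT the other inhibitors ran from 94 to 409 at Ccl5 and from 59 to 268 at Cxcl10. At 2 h they ran from 1024 to 3575 and from 400 to 1167, so that Tanzisertib lay within their ranges. At Cd40 in UT they ran from 90 to 245, which held both compounds. In the IL-4 response, Cd40 was called with IMD0354 (-1.35, SE 0.30, adjusted p 0.0469) and Flt1, a VEGF receptor gene induced by IL-4, with Tanzisertib (-2.04, SE 0.37, adjusted p 0.0177). Flt1 had 37 and 25 in UT cells with DMSO and 133 with Tanzisertib, above the 21 to 119 of the other inhibitors. Of these 13 calls none was kept without DMSO replicate 1, without DMSO replicate 2 or after quantile normalization.

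Of 50697 CREs tested, LPS induced 14680 in DMSO cells (29%) and lowered 12447 (24.6%), and of 47018 IL-4 induced 6415 (13.6%) and lowered 5196 (11.1%). These sets were chosen on the DMSO libraries, which also enter the values given here. At the LPS-induced CREs the median LPS response was 1.29 with DMSO, 0.71 with IMD0354 and 0.59 with Tanzisertib on the log2 scale. The other inhibitors ran from 0.05 to 1.30 with a median of 0.77, and among the 52 inhibitors with all times IMD0354 ranked 33 and Tanzisertib 42 from the largest response. After quantile normalization the medians were 0.84, 0.77 and 0.70, and the ranks 8 and 31, so that the distance from DMSO and the rank of IMD0354 rested on the scaling. LPS-induced CREs with the NF-κB consensus (1734) responded more than those without by 0.42 with DMSO, 0.19 with IMD0354 and 0.31 with Tanzisertib, the other inhibitors running from 0.04 to 0.40 with a median of 0.24. After quantile normalization this gap was 0.31, 0.18 and 0.27, at ranks 35 and 6 of 52 beside 39 and 14 before. The gap for AP-1 was 0.09 with DMSO, -0.03 with IMD0354 and -0.02 with Tanzisertib, near the median of -0.01 of the other inhibitors.

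**Figure D4:**
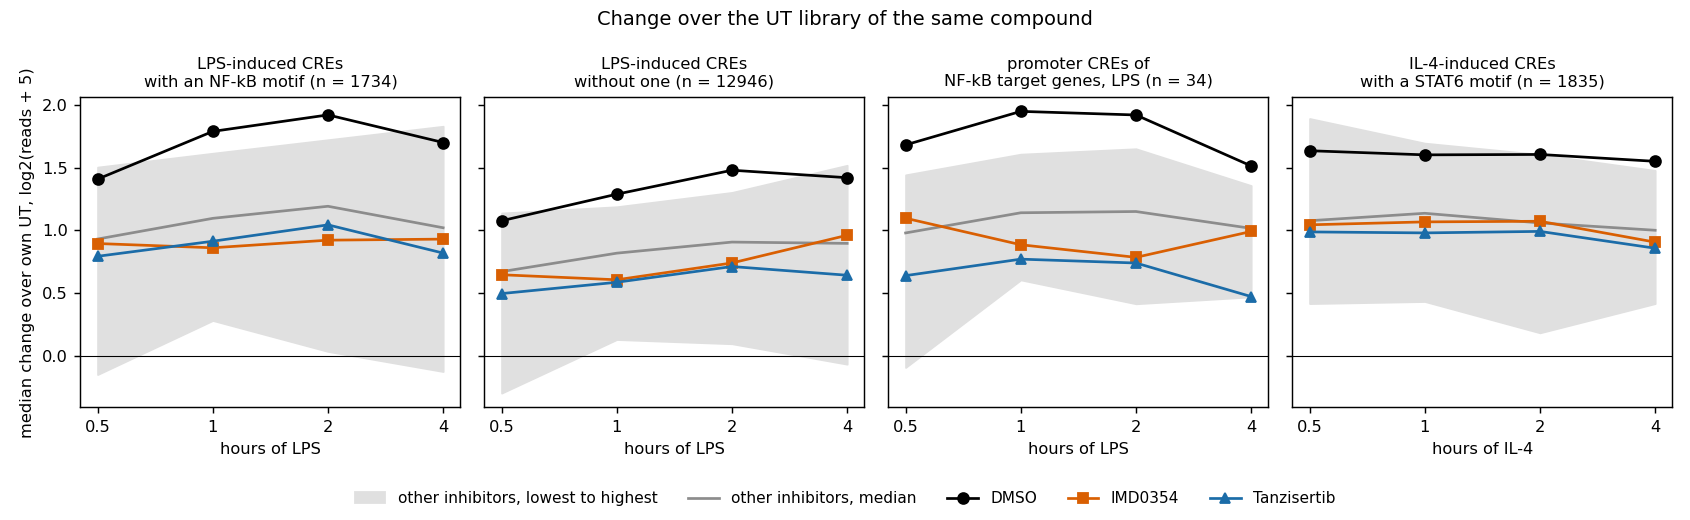
Median change over the UT library of the same compound in log2(reads + 5) along the 4 stimulated times for DMSO (black), IMD0354 (orange) and Tanzisertib (blue), with the range and median of the other inhibitors in grey, at LPS-induced CREs with (n = 1734) and without (n = 12946) the NF-κB consensus, at the promoters of 34 NF-κB target genes and at IL-4-induced CREs with a STAT6 match (n = 1835). Both compounds lie below DMSO at all times, and at the NF-κB target promoters Tanzisertib reaches 0.47 and IMD0354 0.99 at 4 h against 1.51 with DMSO.

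At the 34 NF-κB target promoters both compounds responded less than DMSO by more than at the other lists plotted. Their median LPS response was 1.81 with DMSO, 0.92 with IMD0354 (rank 36 of 52) and 0.69 with Tanzisertib (rank 48), the other inhibitors running from 0.44 to 1.58 with a median of 1.07. After quantile normalization it was 1.28, 0.98 and 0.88, at ranks 43 and 47. By time, the change over UT with Tanzisertib was 0.64, 0.77, 0.74 and 0.47 at 30 min, 1 h, 2 h and 4 h, and with IMD0354 1.10, 0.88, 0.78 and 0.99. Part of the distance lay in UT cells, where the same promoters were above the DMSO libraries by a median of 0.59 with Tanzisertib and 0.40 with IMD0354.

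For the 14 NF-κB subunits and inhibitors the median LPS response was 1.38 with DMSO, 1.15 with IMD0354 (rank 8) and 0.65 with Tanzisertib (rank 39), and after quantile normalization 1.17, 1.19 and 0.79, at ranks 1 and 44. For the 21 IKK and TAK1 signalling genes it was 0.35 with DMSO, 0.59 with IMD0354 (rank 2) and 0.27 with Tanzisertib (rank 16), and after quantile normalization 0.25, 0.62 (rank 1) and 0.35 (rank 13), where Tanzisertib turned to above DMSO. For the 27 interferon genes it was 1.28, 1.20 (rank 13) and 0.74 (rank 44), and after quantile normalization 1.09, 1.27 (rank 6) and 0.99 (rank 42), where IMD0354 turned to above DMSO. The 19 JNK signalling genes had 0.05 with DMSO, 0.05 with IMD0354 and -0.28 with Tanzisertib (rank 42), and after quantile normalization 0.01, 0.08 and -0.16 (rank 43). IMD0354 thus ranked higher at the promoters of the NF-κB regulators than at those of the NF-κB target genes. Its single UT library, which enters each response, differed from DMSO by a median of -0.32 at the IKK list (rank 55 of 58). At the NF-κB subunits and inhibitors it differed by -0.12 (rank 52). That library ranked 55 at the JNK and 56 at the AP-1 and ATF list, so that low UT values were not particular to NF-κB regulators. The lysosome and autophagy list had rank 1 in the LPS response with IMD0354. These ranks carry no test.

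At the 6415 CREs induced by IL-4 in DMSO cells the median IL-4 response was 1.19 with DMSO, 0.76 with IMD0354 (rank 30 of 53) and 0.69 with Tanzisertib (rank 42), and after quantile normalization 0.83, 0.81 and 0.73, at ranks 3 and 24. CREs with a STAT6 match responded more than those without by 0.49 with DMSO, 0.30 with IMD0354 and 0.32 with Tanzisertib, and after quantile normalization by 0.33, 0.34 and 0.33. The 23 IL-4 and STAT6 target promoters had a median response of 1.06 with DMSO, 1.17 with IMD0354 (rank 5) and 0.85 with Tanzisertib (rank 33). After quantile normalization these were 0.86, 1.19 (rank 4) and 0.98 (rank 11), so that Tanzisertib turned from below DMSO to above it.

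**Figure D5:**
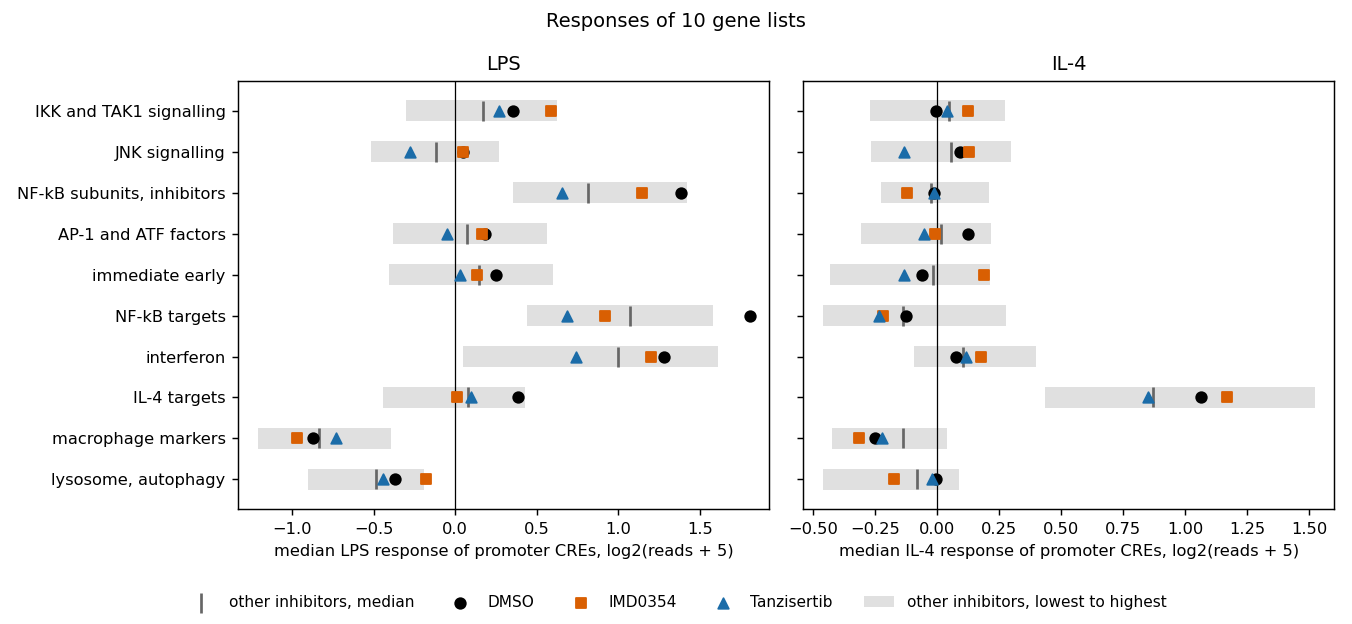
Median LPS (left) and IL-4 (right) response of the promoter CREs of 10 gene lists in log2(reads + 5), for DMSO (black circles), IMD0354 (orange squares) and Tanzisertib (blue triangles), with the range (grey bars) and median (grey ticks) of the other inhibitors. The NF-κB target genes are the list at which DMSO (1.81) lies furthest above both compounds (0.92 and 0.69) under LPS.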

How the data were processed

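H3K27ac ChIP-seq reads of 564 libraries were trimmed to 51 bases, mapped to mm10 with ShortStack (the labels also name Bowtie and SAMtools, without versions) and counted around ATAC-seq summits by the authors, who normalized the counts on invariant peaks. The deposited values are these normalized reads rounded to whole numbers, and are treated as a score, not as counts. CREs with a mean of at least 10 were kept and log2(value + 5) was fitted in limma 3.58.1 (R 4.3.3) with Benjamini-Hochberg adjustment over all CREs. A call needed an adjusted p under 0.05 and a log2 difference over 0.5 in size. DMSO-regulated CREs needed an adjusted p under 0.01 and a change over 1. Differences are on the log2(value + 5) scale, which understates changes at weak CREs. The fits were also run on simulated data with independent noise and no gap in contrast or depth between DMSO and inhibitors. For the course fit the simulated spread between compounds was also removed. Those runs therefore cannot show how the fits behave under such a gap.

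Courses were fitted with time and compound as factors. Against the other inhibitors each compound gave 1 value per CRE. Exact library depth is not given in the files. It was estimated from the steps between low values in all but 11 libraries. A run is a stretch of neighbouring columns in the deposited table, which the labels do not call a batch. The genes named are the 5 largest called rises and falls per comparison with a mean of at least 50, the promoter CREs of listed genes (the strongest CRE within 1 kb of a start), and Nfkbia, Tnfaip3, Tnf, Il1b, Il6, Il12b, Jun, Junb, Fos, Fosl2, Atf3, Ifnb1, Rsad2, Ikbkb, Mapk8, Mapk9, Map4k5, Arg1, Socs1 and Ccl22. Sequence windows are the central 300 bases of a CRE, and both promoters looked for were found in RefSeq. The members and lists were chosen with earlier results of these data known. Alternatives were other pseudocounts and thresholds, quantile normalization, stimulated libraries only, the run of columns or the contrast as a covariate, the replicate block and leaving out libraries. Columns of every library were used.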

Additional observations from a re-analysis of the deposited data

Results flagged for a closer look

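The LPS or IL-4 response differed between inhibitor and DMSO, by a test of the difference itself, at 13 promoter CREs of listed genes. With IMD0354 under LPS these were Tnfaip3 (-1.7148 on the log2 scale), Cd40 (-1.6185) and Cxcl2 (-1.5329). With Tanzisertib under LPS they were Tnfaip3 (-1.8706), Ccl5 (-2.1318), Dusp2, a MAP kinase phosphatase (-1.7127), Il1a (-2.2909), Cd40 (-1.6066), Il6 (-1.7226), Cxcl2 (-1.4481) and Cxcl10 (-2.0546). Under IL-4 they were Cd40 with IMD0354 (-1.3518) and Flt1 with Tanzisertib (-2.0364). All 13 were smaller responses than with DMSO. After quantile normalization the 3 values of IMD0354 under LPS were -1.34, -1.08 and -1.14, and that of Il6 with Tanzisertib was -0.50, with no call among the 13.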

How the results depend on the processing

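The deposited values carry no exact depth, each inhibitor had 1 library in most conditions, and contrast and depth differ between DMSO and inhibitors, so that compound and library quality cannot be told apart in comparisons with DMSO. For 33 named calls, 416 values under alternatives were followed. Quantile normalization lost 25 of these calls, kept 4 and turned 4 (Ccl22 with Tanzisertib over the LPS course -0.10, Ccl22 with IMD0354 under IL-4 -0.22, and Ifnb1 under IL-4 -0.033 with IMD0354 and -0.14 with Tanzisertib). The cause was not tested.

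With quantile normalization the LPS course had 164 CREs called higher and 117 lower with IMD0354 and 767 and 642 with Tanzisertib, and the IL-4 course 202 and 180 with IMD0354 and 1699 higher with Tanzisertib. The LPS responses then had 9 larger and 2 smaller with IMD0354 and 7 and 4 with Tanzisertib, the IL-4 responses 17 and 2, and 4 and 0. Against the other inhibitors it gave 1 lower for Tanzisertib under LPS and 0 lower for IMD0354 under IL-4. A size threshold of 1 left 11338 higher and 24 lower for IMD0354 and 70 lower for Tanzisertib under LPS, and 14682 and 26, and 48 lower, under IL-4. A pseudocount of 1 gave LPS responses of 105 larger and 277 smaller (IMD0354) and 15 and 311 (Tanzisertib), IL-4 responses of 162 and 74, and 7 larger, and 9 lower than the other inhibitors for IMD0354 under IL-4. A pseudocount of 20 gave 0 and 2, 1 and 47, 9 and 8, 0 and 8, and 0 lower, and 2952 CREs lowered by IL-4 in DMSO cells. With contrast as a covariate 5 and 104 CREs were lower than the other inhibitors for IMD0354 under LPS and IL-4 and 1 for Tanzisertib under IL-4. For IMD0354 under IL-4 this count was 2 with run as a factor, 0 with run and quantile normalization together (3 for Tanzisertib) and 0 in stimulated libraries only. Without both suffix b libraries IMD0354 had 822 lower in the LPS course and 32 smaller LPS responses. The suffix b settings and run with quantile normalization were chosen after seeing the data.

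Leaving out 1 library at a time, the LPS course ranged from 13065 to 22488 higher and 978 to 1686 lower with IMD0354, and from 23455 to 27233 and 1795 to 2606 with Tanzisertib. The IL-4 course ranged from 18127 to 24015 and 517 to 925, and from 29584 to 31820 and 1410 to 1674. LPS responses ranged from 0 to 30 larger and 0 to 193 smaller with IMD0354 and from 0 to 8 and 4 to 280 with Tanzisertib, IL-4 responses from 1 to 36 and 0 to 18, and 0 to 2 and 0 to 24. For IMD0354 the 193 came without its 30 min library, and for Tanzisertib the 280 came without its 30 min library, against 52 without 2 h and 46 without 4 h. Under IL-4 the smaller responses of IMD0354 were 17 to 18 without its 30 min, 1 h or 2 h library and 13 without 4 h, and those of Tanzisertib 15 without 1 h and 11 without 4 h. Without DMSO replicate 1 the larger and smaller responses under LPS were 1 and 4, and 0 and 5, and without DMSO replicate 2 0 and 0, and 0 and 4. Against the other inhibitors 1 to 8 CREs were lower for IMD0354 under IL-4 and 0 to 0 otherwise. DMSO-regulated CREs ranged from 13225 to 14826 and 10572 to 12934 under LPS and from 5453 to 6474 and 4045 to 5563 under IL-4. No response could be formed without the UT library of a compound.

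With the DMSO replicate number as a replicate block the DMSO-regulated CREs numbered 14653 and 12413 under LPS and 6420 and 5191 under IL-4. The inhibitors share no replicate numbers with DMSO, so that no paired comparison of them was possible, and no other result has a block.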
